A study of Danio rerio with 4 samples.

Results

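Among RNAs of zebrafish larvae that lacked znf574, 200 transcripts were selected as already expressed in wild-type siblings and much more abundant in the mutants. They were chosen by a rule on TPM, a transcript level corrected for transcript length and library depth. A transcript had to reach 1 TPM in all 4 libraries and 10 TPM in both mutant libraries, and could not be among the 150 most abundant transcripts of wild-type larvae by mean TPM. The lower mutant value was then divided by the higher wild-type value, and the 200 largest ratios were kept. Of the 57775 transcripts listed, 6624 met the floors, so the 200 members are those with the largest ratios among them. The ratio itself was what chose the members, so all differences between mutant and wild type given for them are descriptions and carry no test.

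The libraries were made from whole larvae of crosses between znf574+/- fish in the AB wild-type background. The mutant group was znf574-/- and the wild-type group held siblings that were znf574+/+ or znf574+/-, each with 2 libraries and no treatment. Clutches were kept for 8 days, and the genotypes were told apart by appearance at 7 days after fertilization. The labels give neither the number of larvae per library nor whether replicates came from separate clutches, so the spread between replicates may be technical. Since whole animals were used, more cells of a type cannot be told apart from more RNA per cell.

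The series concerns the quality control of ribosome assembly. Ribosomes are built in the nucleolus from ribosomal RNA and ribosomal proteins with the help of many assembly factors, and cells recognise and degrade particles that are assembled wrongly. Zebrafish larvae of this age have working muscle, eye, liver, pancreas and gut, so a library of the whole animal mixes the transcripts of all of these. The deposited tables list transcripts by identifier only. Neither name table at hand, with 29201 and 49597 genes, contained any of the identifiers (0 matches in each). The members are therefore described by rank of ratio, length and level, and neither gene names nor sequences are given. The level of znf574 itself and the identity of the tissues were not analysed here.

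The 4 libraries differed in depth by less than 1.5 times, with totals from 31653921 (mutant replicate 2) to 42901442 (mutant replicate 1) estimated counts. The counts behind the members were above the limit of 3 that a count of 0 allows. The lowest estimate for a member was 12.7 counts in a wild-type library and 74.5 in a mutant library. An estimate under 50 counts in at least 1 wild-type library was found for 15 members, and under 100 for 56.

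The members were at a low level in wild type. Their median was 4.21 and 3.76 TPM in wild-type replicates 1 and 2, and 28.1 and 24.5 TPM in mutant replicates 1 and 2. The median wild-type level of all transcripts that met the floors was 22.1 and 18.7 TPM, and their median mutant level was 23.9 and 21.8 TPM. The members thus lay below the other transcripts in wild-type larvae and slightly above them in mutants, an order to which the rule itself contributes.

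The median fold of the members differed with the libraries compared. It was 6.40 for mutant replicate 1 over wild-type replicate 1, 7.54 for mutant 1 over wild type 2, 5.52 for mutant 2 over wild type 1 and 6.72 for mutant 2 over wild type 2. For all transcripts that met the floors, the same 4 medians were 1.14, 1.34, 1.05 and 1.24. Both mutant libraries lay above both wild-type libraries for 3251 of these 6624 transcripts, or 49.1%. For the members this is given by the rule.

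**Figure D1:**
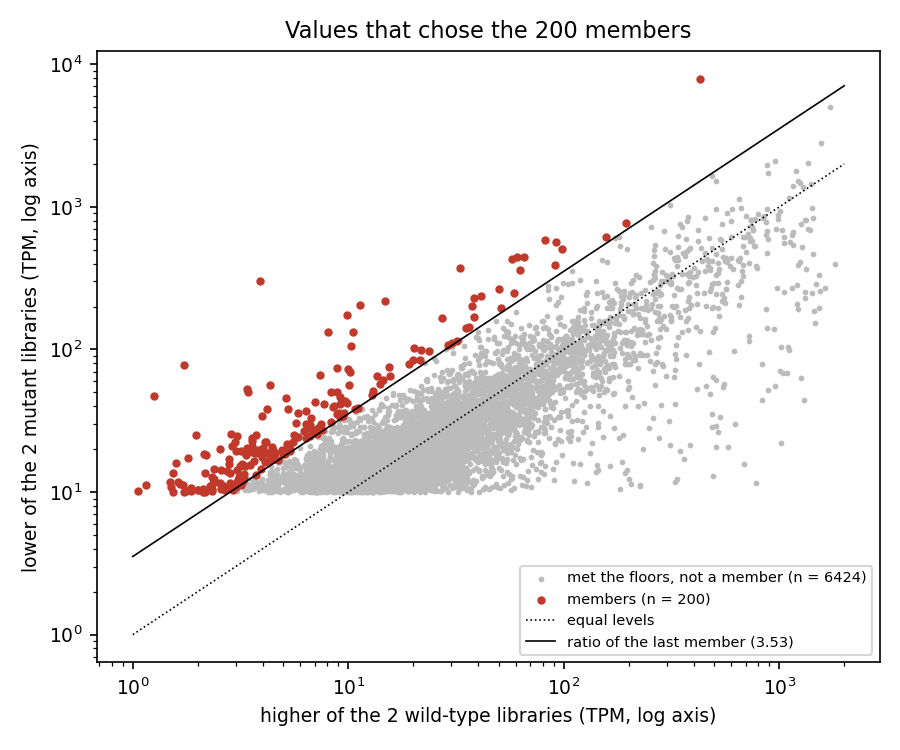
Each point is a transcript that met the floors, with the higher of its 2 wild-type values on the horizontal axis and the lower of its 2 mutant values on the vertical axis, both in TPM on log axes. The 200 members (red) lie on or above the solid line at a ratio of 3.53, the 6424 others (grey) below it, and most members sit at the low end of the wild-type axis.

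The ratios fell off quickly after the first few members. The largest was 78.4, and 3 members exceeded 20. A ratio of at least 10 was reached by 16 members, of at least 5 by 92 and of at least 4 by 153, and the median was 4.86. The last member, at rank 200, was a transcript of 1900 bases with 11.1 and 8.61 TPM in wild type and 40.7 and 39.1 TPM in mutants, a ratio of 3.53. The first transcript left out, of 3178 bases, had 33.0 and 29.6 TPM in wild type and 133 and 116 TPM in mutants, also a ratio of 3.53. The last member and the first transcript left out were therefore alike in ratio, though this pair differed in level. The ratio fell without a step at the limit, to 3.46 at rank 210.

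The member with the largest ratio was ENSDART00000183669.1, of 495 bases. Its wild-type level was 3.80 and 3.88 TPM, and mutant replicates 1 and 2 held 1147 and 304 TPM. The wild-type values were nearly equal, while the mutant values differed from each other by 3.77-fold. Its estimates were not whole numbers (49.64 and 55.86 counts in wild type), so they included reads that match several transcripts.

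The second, ENSDART00000183680.1, of 519 bases, had 1.54 and 1.73 TPM in wild type and 195 and 78.0 TPM in mutants. It was again higher in mutant replicate 1, by 2.50-fold. It was one of the members with the fewest wild-type counts, 21.1 and 26.3, and its estimates also included reads that match several transcripts. The third, of 5906 bases, had 1.07 and 1.25 TPM in wild type and 52.6 and 47.3 TPM in mutants, so here the mutant libraries differed by only 1.11-fold.

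The fourth member was the shortest, with 165 bases, and the most abundant. It had 270 and 428 TPM in wild type and 7945 and 9519 TPM in mutants, a fold of 18.6 for the closest pair of libraries and of 35.2 for the most distant. All 4 estimates for it were whole numbers (912, 1590, 30482 and 28845 counts), although estimates of 10000 or more are deposited with too few decimals to judge this to the tolerance used for the other members. Because the effective length is the length minus 50 bases, the TPM of so short a transcript depends more on that subtraction than the TPM of a long one, while its fold does not.

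The next 6 members show the range of agreement among replicates. The fifth (1046 bases) had 4.94 and 11.3 TPM in wild type and 221 and 204 TPM in mutants. The sixth (2053 bases) had 9.82 and 8.66 TPM in wild type and 539 and 173 TPM in mutants. The fifth was uneven in wild type and the sixth in mutants.

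The seventh (1298 bases) rested on whole counts in every library, with 8.09 and 6.47 TPM in wild type and 165 and 132 TPM in mutants. The eighth (2084 bases) had 3.40 and 2.996 TPM in wild type and 53.1 and 53.7 TPM in mutants. The seventh differed by 1.25-fold between the libraries of each genotype. The eighth was more even, with 1.13-fold in wild type and mutant values that were nearly equal.

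The ninth (645 bases) had 14.8 and 3.87 TPM in wild type and 218 TPM in both mutant libraries. The tenth (1416 bases) had 1.80 and 3.41 TPM in wild type and 50.1 and 55.7 TPM in mutants. In both, the wild-type libraries were the uneven ones, and the ratio takes the higher of them.

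**Figure D2:**
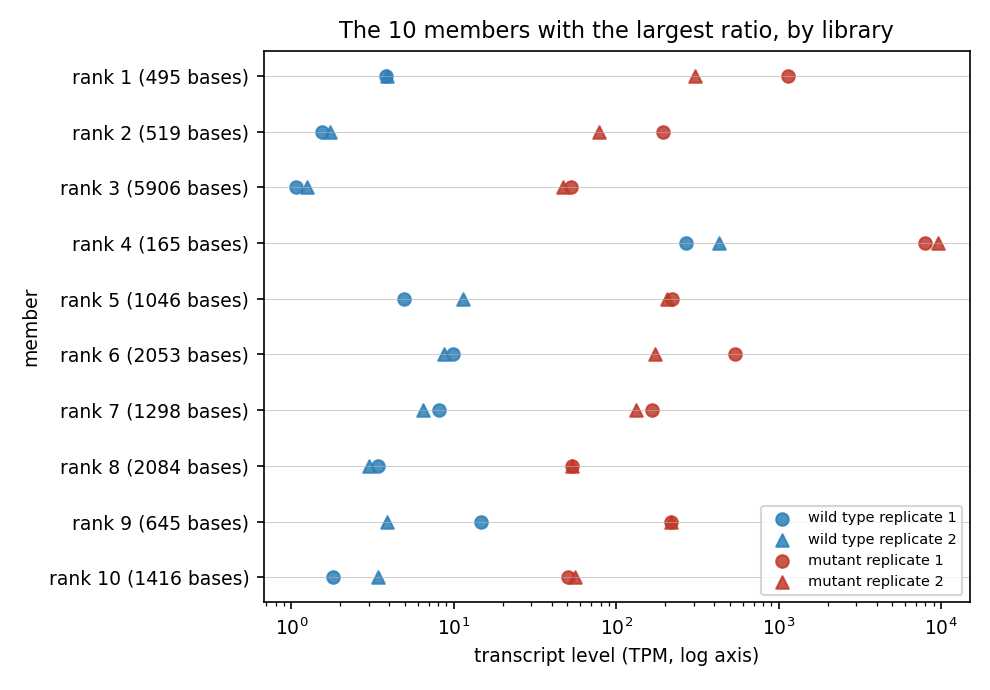
TPM on a log axis for the 10 members with the largest ratio, 1 row per member and 1 point per library (blue, wild type; red, mutant; circles, replicate 1; triangles, replicate 2). The genotypes are apart in every row, as the rule requires, and the mutant replicates are visibly apart for ranks 1, 2 and 6, with replicate 1 the higher.

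A few abundant members held much of the members' summed TPM. Summed over the members, the level was 2563 and 2427 TPM in wild type and 27428 and 23572 TPM in mutants, between 9.20-fold and 11.3-fold higher depending on the libraries compared. This was 0.256% and 0.243% of all TPM in wild type and 2.74% and 2.36% in mutants. The 165-base member alone made up 29.0% and 40.4% of the members' sum in mutant replicates 1 and 2, and without it the sum was 6.13-fold to 9.74-fold higher in mutants. The 10 most abundant members in mutants together held 57.8% and 60.0% of the mutant sums. Measured as a share of estimated counts, which is not corrected for length, the members held 0.313% and 0.296% in wild type and 2.37% and 1.90% in mutants. By counts the 165-base member was not the largest, with 30482 and 28845 in mutant replicates 1 and 2. The member of 11495 bases, at rank 66, had the most, with 102985 and 71593.

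Some members were abundant in wild type as well. Both wild-type libraries held at least 50 TPM for 8 members and at least 100 TPM for 3. The member at rank 157 (1941 bases) went from 194 and 179 TPM in wild type to 1054 and 766 TPM in mutants. The member at rank 163 (1724 bases) went from 156 and 139 TPM to 618 and 614 TPM. The most even of the abundant members, at rank 82 (1542 bases), had 97.7 and 95.1 TPM in wild type and 510 and 508 TPM in mutants, so that its fold ran only from 5.20 to 5.37 over the 4 pairs of libraries.

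Most members were rare in wild type. A mean wild-type level between 1 and 2 TPM was found for 27 members, between 2 and 5 TPM for 92, between 5 and 10 TPM for 41, between 10 and 50 TPM for 31 and at 50 TPM or more for 9. The median ratio in these classes was 6.91, 4.62, 4.52, 4.25 and 6.09. All 27 transcripts that met the floors with a wild-type mean under 2 TPM were members, because a transcript so low in wild type and at 10 TPM in both mutant libraries is bound to have a large ratio. In mutants, 55 members reached 50 TPM in both libraries, 33 reached 100 TPM and 6 reached 500 TPM.

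Length played no part in the rule, and the members resembled the other transcripts in it. Their median length was 1628.5 bases, with quartiles of 1042 and 2431, beside a median of 1745 and quartiles of 1046 and 2608 for all transcripts that met the floors. The shortest had 165 bases and the longest 15886. Of the members, 4.0% had up to 500 bases, 19.5% had more than that and up to 1000, 42.5% had up to 2000, 29.0% had up to 4000 and 5.0% had more than 4000. Among all transcripts that met the floors these shares were 3.71%, 19.7%, 35.6%, 32.3% and 8.64%. When mutant and wild type were swapped in the rule, the 200 transcripts with the largest ratios of wild type over mutant had a median length of 1026.5 bases, and 49.0% of them had up to 1000 bases, against 23.5% of the members. The 33 members with at least 100 TPM in both mutant libraries had a median of 792 bases, and 18 of them had up to 1000 bases. TPM is divided by length, and no length was taken for the other transcripts at that level. The shorter length therefore cannot be called particular to the members. These are descriptions without a test, since transcripts are not independent replicates.

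The 3 longest members lay well beyond the others in length. The member of 15886 bases (rank 139) had 3.27 and 4.48 TPM in wild type and 23.0 and 18.5 TPM in mutants. That of 11495 bases (rank 66) had 41.4 and 22.1 TPM in wild type and 270 and 237 TPM in mutants. That of 10495 bases (rank 54) had 6.996 and 5.36 TPM in wild type and 56.1 and 42.7 TPM in mutants. All 3 were somewhat higher in mutant replicate 1 than in replicate 2.

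The quantification program divides reads that match several transcripts among them, so an estimate that is not whole contains divided reads. Estimates were called whole when they lay within 0.005 of a whole number in all 4 libraries, and were not judged when any of them reached 10000 counts. Of the members, 33 had whole estimates, 145 had divided ones and 22 were not judged. Whole estimates thus made up 18.5% of the 178 judged members, 21.8% of the 6141 judged transcripts that met the floors, and 17.96% of those judged in the list with the genotypes swapped. The median ratio was 4.89 for the 33 members with whole estimates and 4.71 for the 145 with divided ones. The largest ratios belonged to members that were divided or not judged, which together made up most of the members. The first member with whole estimates was at rank 7.

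Of the 22 members that were not judged, 19 had a fractional estimate in a library with fewer than 10000 counts and so contained divided reads. The other 3, at ranks 4, 157 and 159, had no such estimate. Rank 157 had 10000 counts or more in every library, with fractions still visible (10759.3 and 10957.3 in wild type), so it also contained divided reads. Ranks 4 and 159 showed no fraction at the decimals deposited. The 33 members judged whole had estimates without a fraction in all 4 libraries. Their wild-type mean ranged from 1.15 to 40.8 TPM and their mutant mean from 10.4 to 200.4 TPM. After rank 7, the next was at rank 11 (2615 bases), with 4.32 and 2.62 TPM in wild type and 62.9 and 56.7 TPM in mutants. That member was uneven in wild type, by 1.65-fold. The one at rank 17 (2016 bases) had 1.14 and 1.15 TPM in wild type and 11.2 and 12.0 TPM in mutants. The one at rank 41 (2456 bases) had 1.66 and 1.61 TPM in wild type and 11.49 and 11.45 TPM in mutants. At ranks 17 and 41 the replicates of each genotype lay close together and the genotypes far apart.

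Members with whole estimates were also even between the mutant libraries. The higher mutant value exceeded the lower by a median of 1.08-fold for them, by 1.23-fold for divided members and by 1.32-fold for those not judged. A gap of more than 1.5-fold between the mutant libraries was found for 0 of the 33 whole members, 28 of the 145 divided ones and 8 of the 22 not judged. The same order held over all transcripts that met the floors, with gaps over 1.5-fold for 2.91% of 1340 whole, 11.9% of 4801 divided and 22.4% of 483 not judged transcripts. In wild type the medians were closer together, at 1.29-fold for whole and 1.30-fold for divided members.

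**Figure D3:**
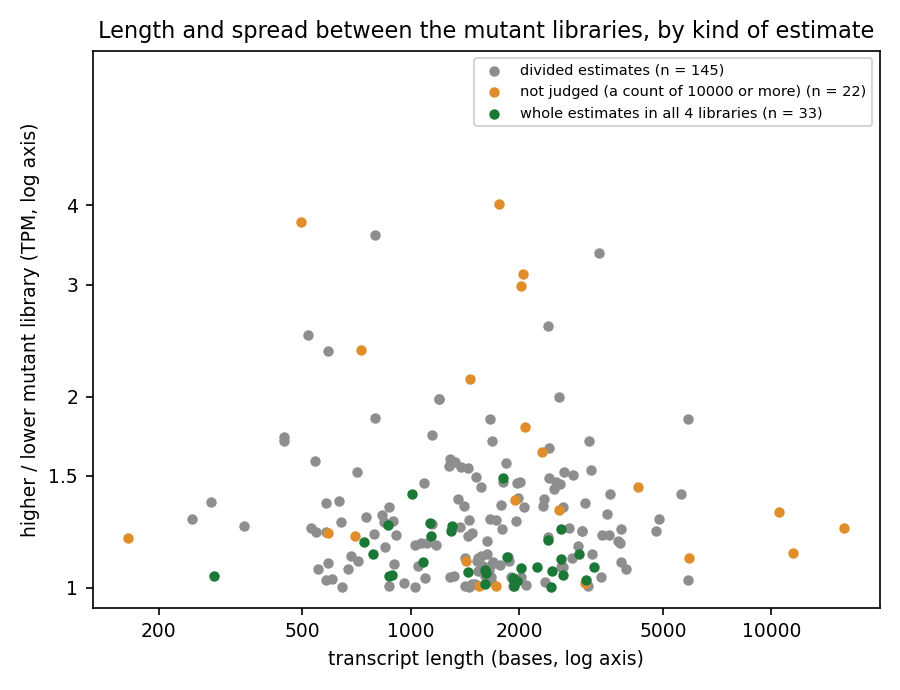
The higher mutant value divided by the lower (log axis) against transcript length in bases (log axis) for the 200 members, by whether the estimated counts were whole in all 4 libraries (green), divided (grey) or not judged (orange). All green points lie below 1.5, and the members above 2 are grey or orange at lengths from 495 to 3326 bases.

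Where the mutant libraries differed most, replicate 1 was the higher. Replicate 1 exceeded replicate 2 for 149 of the 200 members, or 74.5%, beside 68.8% of all transcripts that met the floors. The libraries differed by more than 2-fold for 11 members, and all 11 were higher in replicate 1. Among all transcripts that met the floors 205 differed this much, and 101 of those were higher in replicate 1. Besides ranks 1, 2 and 6, the 11 included rank 35 (728 bases), with 59.0 and 60.9 TPM in wild type and 1049 and 444 TPM in mutants. They also included rank 76 (796 bases), with 2.66 and 4.12 TPM in wild type and 80.2 and 22.4 TPM in mutants. The largest gap in the other direction was 1.98-fold, at ranks 84 and 85.

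The members at ranks 84 and 85, both of 1197 bases, had identical values in all 4 libraries, at 1.27 and 2.01 TPM in wild type and 10.4 and 20.5 TPM in mutants. They carry 1 measurement between them, so the 200 members hold 199 distinct ones. Of the 6624 transcripts that met the floors, 41 shared all their values with another transcript.

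Some members were uneven in both genotypes at once. The wild-type libraries differed by more than 2-fold for 18 members, 10 of them higher in replicate 1 and 8 in replicate 2. This was 9.0% of the members, beside 2.46% (163) of all transcripts that met the floors. The comparison was not matched for level, and the median wild-type mean was 3.92 TPM for the members and 20.5 TPM for all. In 4 members wild-type replicate 2 and mutant replicate 1 were each more than 2-fold above their partner, at ranks 129, 138, 140 and 166. No member showed any of the other 3 combinations at that size. Among all transcripts that met the floors, 17 showed this combination at 2-fold, beside 16, 11 and 4 for the others. At 1.5-fold the number was 7, beside 1, 2 and 0 for the other combinations, and among all transcripts that met the floors it was 51, beside 44, 15 and 46. Across the 200 members the log2 ratio of the wild-type replicates and that of the mutant replicates had a Pearson correlation of -0.39 and a Spearman correlation of -0.29, beside -0.13 and -0.11 across all 6624. The points share the same 4 libraries, and without the member at rank 129 the Pearson correlation was -0.31.

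The member at rank 129 (1762 bases) was the most uneven. It had 4.65 and 91.4 TPM in wild-type replicates 1 and 2 and 1579 and 393 TPM in mutant replicates 1 and 2. The wild-type libraries were 19.7-fold apart, and the fold between genotypes ran from 4.29 to 339.6 with the libraries compared. The member at rank 138 (2021 bases) had 4.25 and 19.1 TPM in wild type and 238 and 79.6 TPM in mutants. In both, the genotypes did not overlap, as the rule requires, but the distance between them was set by which replicates were taken.

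**Figure D4:**
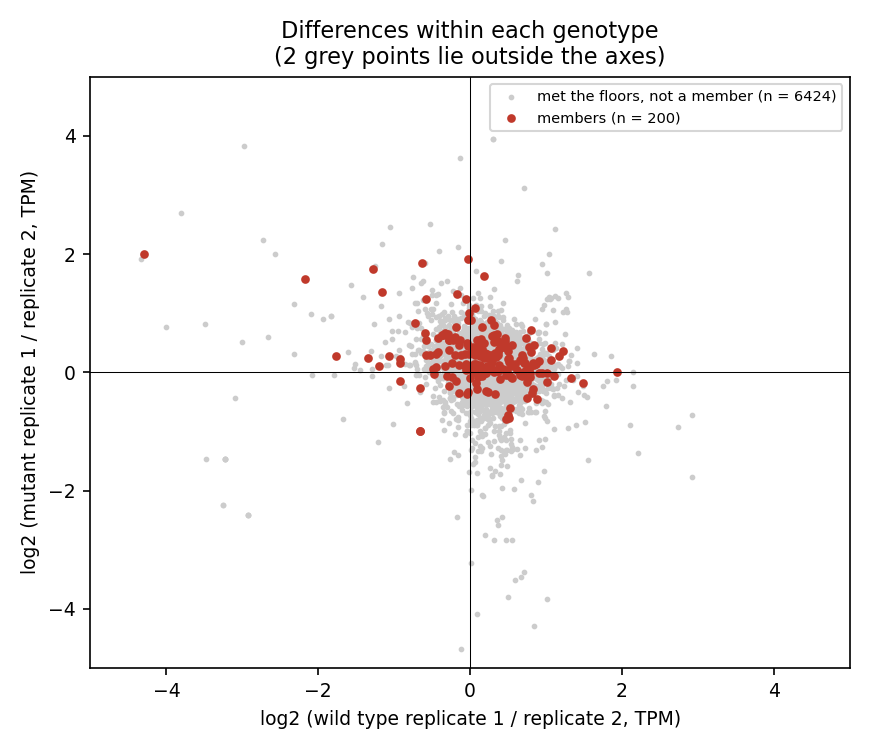
The log2 ratio of wild-type replicate 1 to replicate 2 (horizontal) against that of mutant replicate 1 to replicate 2 (vertical), from TPM, for the 200 members (red) and the other 6424 transcripts that met the floors (grey, 2 of them outside the axes). The red points with large vertical values lie above 0, and several lie in the upper left part, where wild-type replicate 2 and mutant replicate 1 were the higher.

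Fitted to the estimated counts of all 39773 transcripts that passed a filter on low counts, the quasi-likelihood test of edgeR called 9.50% of the tested transcripts higher in mutants at a Benjamini-Hochberg adjusted p under 0.05. All 200 members passed the filter and 193 were called. Among the 6624 transcripts that met the floors 1332, or 20.1%, were called higher. Since the members were taken from the same contrast and libraries, nothing is read from their count. Their log2 fold change ranged from 1.76 to 7.33 with a median of 2.51, where the median of all tested transcripts was -0.01. The 7 members that were not called included ranks 129, 138, 140 and 166, which were uneven in both genotypes, and ranks 86, 108 and 188. All 7 were more than 2-fold apart between the wild-type libraries, with replicate 2 the higher. The rest of the 18 members this far apart in wild type were called. Among them were rank 5 (2.30-fold, higher in wild-type replicate 2) and rank 9 (3.82-fold, higher in replicate 1). The cause was not tested. With the replicate number as a block, edgeR called 0 of all 39773 tested transcripts, higher or lower, and so 0 of the 200 members. Without either wild-type library edgeR likewise called no transcript, member or not. The lack of calls in these fits is therefore not particular to the members. At an unadjusted p under 0.05 it had 195 and 199 members without wild-type replicates 1 and 2, beside 25.2% and 24.5% of all tested transcripts, and 196 with the block, beside 31.1%. DESeq2 called 6.15% of all transcripts higher without wild-type replicate 1 and 6.14% without replicate 2, and 196 members each time. Nothing is read from these counts of members either.

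As a description of how far the libraries matched, the rule was also applied to 1 wild-type and 1 mutant library. The 200 transcripts it gave were read in the other 2 libraries. Every choice drew on the same libraries, and replicates may be technical, so the other libraries may not be independent of the choosing ones. The values are therefore descriptions and carry no test of the members. Of the transcripts chosen from replicate 1 of both genotypes, 178 were higher in mutant than in wild type in the other 2 libraries, with a median fold of 5.03. Chosen from wild type 1 and mutant 2 the number was 185 with a median of 7.85, from wild type 2 and mutant 1 it was 192 with 6.07, and from replicate 2 of both it was 188 with 6.12. Among all transcripts that met the floors in the choosing libraries, the share that was higher in the mutant library that had no part in the choice was 65.5%, 66.4%, 54.5% and 56.4%, with medians of 1.23, 1.28, 1.06 and 1.09. A fold above 2 was seen for 80.0%, 88.0%, 91.5% and 90.5% of the chosen transcripts, beside 20.2%, 24.2%, 14.0% and 17.6% of all that met the floors.

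The lists chosen from 1 pair of libraries were not the same as the members. They held 99, 134, 115 and 136 of the 200. The median fold in the choosing libraries was 9.19, 6.55, 9.91 and 7.96, higher than in the other pair except where wild type 1 and mutant 2 had chosen. A value that was not higher in the mutant was found for 19, 15, 7 and 12 of the chosen transcripts, and 3 of those chosen from replicate 1 of both and 1 of those chosen from wild type 2 and mutant 1 were at 0 in both other libraries. Of those counted as higher, 4, 4, 9 and 4 were listed at 0 in the other wild-type library. No fold was taken for the 4 at 0 in both, and with 2 libraries per group no permutation test on this scale can reach a p of 0.05.

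**Figure D5:**
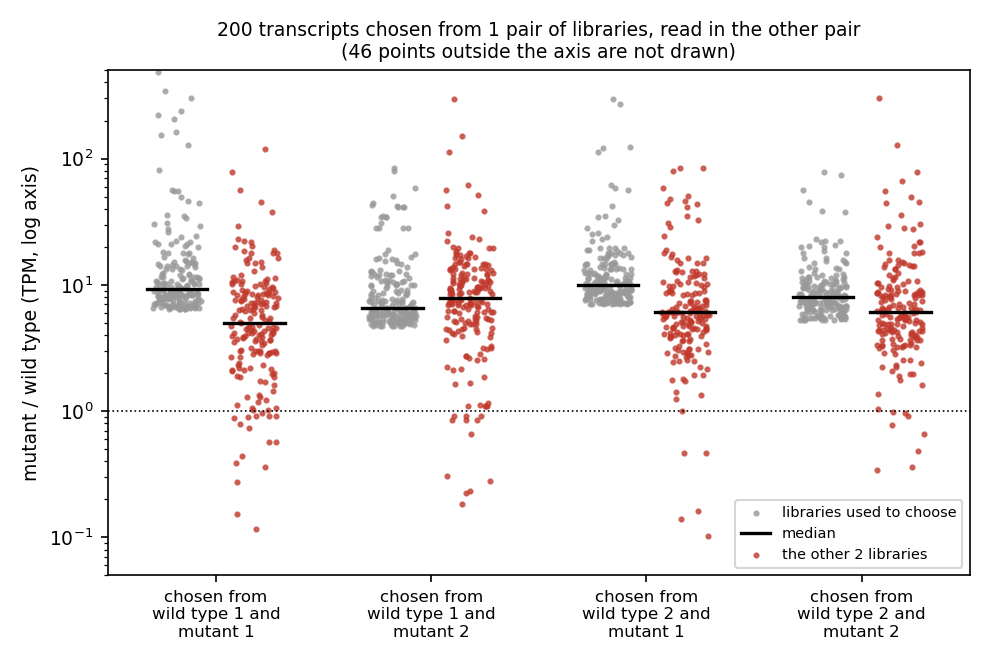
Mutant over wild-type TPM (log axis) for the 200 transcripts chosen from each of the 4 pairs of 1 wild-type and 1 mutant library, in the choosing pair (grey) and in the other pair (red), with medians as black bars and a dotted line at equal levels. Most red points lie above the line, with medians between 5.03 and 7.85, and 46 points that are beyond the axis or at 0 in a library are not drawn.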

How the data were processed

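Libraries of poly(A) RNA from 2 mutant and 2 wild-type groups of whole larvae were made with a stranded kit, per the labels' protocols. Per the submitters' processing notes, bcl2fastq 2.20 and kallisto 0.46.0 were used, and the notes also list DESeq2 2.11.40 with GRCz11 and danRer11 as builds. The annotation release is not given in the sources used here. The authors deposited kallisto's estimated counts without normalization. They also deposited TPM, which is the count per effective length scaled to 1000000 per library, and effective lengths were the same in all libraries.

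The rule was applied to TPM with pandas 2.3.3. Estimated counts were rounded and tested with edgeR 4.0.16 in R 4.3.3 (filterByExpr with a minimum count of 10 and a total of 15, TMM, robust non-legacy quasi-likelihood fit, group as the only term). The code was checked on counts simulated with the same replicate spread for every transcript. Such counts are more even than these libraries, so the check does not show how reliable the calls are. Alternatives used DESeq2 1.42.0, limma 3.58.1, other scalings and filters, a replicate block and reduced sets of libraries. A count of 0 allows up to 3 counts, or 0.0674 to 0.0922 CPM of the TMM-scaled library, for counting error only.

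The members and gene lists were chosen with earlier results of these data known. The gene lists were not used, since the identifiers carry no gene names. Only the 2 members with the largest ratio are named, and others are given by rank, a choice of examples made partly after their values were seen. Comparisons with the swapped rule and by whole estimates were also added then. The replicate numbers are tied to no clutch, and deviations of same-numbered libraries correlated at -0.122 across tested transcripts, so no pairing was assumed.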

Additional observations from a re-analysis of the deposited data

How the results depend on the processing

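The median log2 fold change of the members stayed between 2.40 and 2.69 over 18 alternatives, a direction that the rule fixes. The number called higher, 193 of 200, stayed between 189 and 200 under DESeq2, the other scalings, filters and limma. The filter of 1 CPM in all 4 libraries left 192 to test. Of all tested transcripts, these fits called from 6.40% (no filter) to 17.2% (filter of 1 CPM) higher. The rule chose the members from the same contrast, so nothing is read from their counts in any of the fits. With the replicate block edgeR called 0 members and 0 of all transcripts, with 196 members and 12361 of all 39773 at an unadjusted p under 0.05. Leaving out 1 library gave 0 to 186 members with edgeR (0 without wild-type replicate 1 or 2) and 194 to 196 with DESeq2; for all transcripts higher in mutants, 3779 with every library, it gave 0 to 3409 with edgeR and 1841 to 5715 with DESeq2. At an unadjusted p under 0.05 edgeR had 195 and 199 members without wild-type replicates 1 and 2, beside 10695 of 42497 and 10424 of 42614 transcripts, and the cause was not tested. The lone library of a genotype was assumed to vary like the other group. The crossed replicate block was added after seeing the data, because deviations of same-numbered libraries were weakly and negatively correlated (-0.122 across tested transcripts). It gave 191 members and 2779 of all 39773 transcripts, or 6.99%. No label supports this pairing and it was chosen from these same data, so its counts do not show how reliable the calls are.

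With library size in place of TMM the log2 fold changes of single transcripts shifted up by a median of 0.097, and 55.4% of the calls were rises in place of 48.2%. In limma, test, unit, pseudocount and scaling change together. The median shifts of single transcripts there were 0.16 on log2(TPM + 1) and 0.18 on log2(TPM + 0.1), with 58.1% and 57.7% rises. Membership rested on the form of the rule: of the 200, 171 remained with the ratio of means, 185 with TMM-scaled CPM and 199 with the 150 most abundant transcripts kept in. By construction fewer remained with a floor of 5 TPM in all libraries (69), of 50 TPM in both mutant libraries (55), or with only whole estimates (33, an alternative added later). Leaving out 1 library kept 134 to 168, and 107 remained in all 4 such lists. Choosing from 1 pair of libraries kept 99 for replicate 1 of both genotypes and 115 for wild type 2 with mutant 1. The depth leaves the wild-type level of the 15 members under 50 counts the least certain.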
